A study of Homo sapiens with 5 samples.

Results

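The VAV genes VAV1, VAV2 and VAV3 were examined for binding of SF-1 (steroidogenic factor-1), the nuclear receptor encoded by NR5A1 that controls steroid hormone genes in the adrenal gland and gonads. These 3 genes, of 20163 protein-coding genes in the annotation, were chosen by name. A peak was assigned to a gene when its centre lay inside the gene body or within 100 kb of either end. By this rule 59 of 30372 peaks belonged to the VAV genes. VAV2 held 3, 34, 4 and 10 peaks in the 4 lists described next, VAV3 held 1, 3, 2 and 2, and VAV1 held 0 in all 4.

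Chromatin immunoprecipitation and sequencing (ChIP-seq) gave the binding sites. The cells, named H295R/TR SF-1, derive as a subclone from an established human adrenocortical tumor line and carry an SF-1 construct switched on by doxycycline. Chromatin was taken from cells without doxycycline (basal SF-1) or after 3 days with it (overexpressed SF-1). For either dosage, an anti-SF-1 antibody from Millipore and one from Perseus were used, giving 4 groups of 3 libraries. Per the methods the authors called peaks from triplicate samples against input DNA, of which there were 2 libraries. How the 3 libraries of a group were combined is not stated, and the labels give 1 list for them. Each group is therefore 1 list, and the spread between replicates is not known. No test was made between lists, and every interval covers counting error over peaks only. The basal cells carry the same construct as the induced ones, and all groups come from 1 subclone. The lists held 4393 (basal Millipore), 11910 (overexpressed Millipore), 6616 (basal Perseus) and 7453 (overexpressed Perseus) peaks, with a median width of 149 bp in each. Read depth is unknown. Ranks begin at 1 within each list. The quantity ranked on is not stated, and ranks of lists of unequal length are not on 1 scale, so a rank is also given as a percent of its list where that helps. Cell identity was not checked, because the lists hold positions and ranks only.

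VAV proteins are guanine nucleotide exchange factors: they make small GTPases, such as RAC1, RHOA and CDC42, release GDP and take up GTP, which switches them on. They are themselves activated by tyrosine phosphorylation below receptors, and the GTPases they activate remodel actin in cell spreading, migration and invasion. VAV1 is known mainly from blood cells, whereas VAV2 and VAV3 are expressed widely. VAV2 is known as a target of SF-1 dosage that drives invasion of adrenocortical cells.

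The genes differ in size and setting. VAV1 (ENSG00000141968) lies on the plus strand at chr19:6772719-6857377 of hg19 and spans 84.7 kb. VAV2 (ENSG00000160293) lies on the minus strand at chr9:136627016-136857726 and spans 231 kb. VAV3 (ENSG00000134215) lies on the minus strand at chr1:108113783-108507802 and spans 394 kb. GC content over the body and its 100 kb flanks was 48.2% for VAV1, 55.3% for VAV2 and 38.7% for VAV3. Long genes gather more peaks, so counts are also given per 100 kb of body and flanks. VAV2 is among the longer genes, with 6.08% of protein-coding genes as long or longer.

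The sites that carry the account are the ones that were found in more than 1 list, since these were called in separate precipitations. The lists come from 1 subclone, with 2 input libraries in all, and background common to them was not tested. The sequences of these sites are shown as the hg19 plus strand, 5′ to 3′, over the narrowest peak of the site. The VAV2 intron 2 site is the exception. It is shown over its better-ranked overexpressed Perseus peak, and a narrower one lies at chr9:136739801-136739899. Capitals mark the SF-1 consensus, a 9-base sequence with 8 spellings (TCAAGGTCA, with C allowed for the first T and for the second T, and G for the last A), or, in the first exon of VAV2, its 7-base core CAAGGTC read on the other strand. The site beyond the 3′ end of VAV2, at chr9:136529701-136529849 in SARDH, and the site just beyond the 3′ end of VAV3, at chr1:108113151-108113299, were present in all 4 lists. The VAV2 first exon (chr9:136857251-136857399), VAV2 upstream (chr9:136858151-136858399) and VAV2 intron 2 (chr9:136739201-136739399) sites were present in both overexpressed lists. A second SARDH site (chr9:136530101-136530199) and a BRD3 site (chr9:136923101-136923199) were also present in both. The VAV3 intron 19 site, at chr1:108210651-108210749, was present in the overexpressed Millipore and basal Perseus lists.
VAV2, SARDH site: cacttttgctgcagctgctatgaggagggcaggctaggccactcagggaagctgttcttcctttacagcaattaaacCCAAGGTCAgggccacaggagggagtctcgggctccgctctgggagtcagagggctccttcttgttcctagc
VAV2, second SARDH site: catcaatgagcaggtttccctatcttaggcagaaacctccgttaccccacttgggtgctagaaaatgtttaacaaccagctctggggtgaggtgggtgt
VAV2, intron 2 site: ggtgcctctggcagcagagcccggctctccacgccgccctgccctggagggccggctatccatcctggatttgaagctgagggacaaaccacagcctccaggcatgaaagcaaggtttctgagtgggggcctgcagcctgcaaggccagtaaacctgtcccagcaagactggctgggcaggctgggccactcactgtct
VAV2, exon 1 site: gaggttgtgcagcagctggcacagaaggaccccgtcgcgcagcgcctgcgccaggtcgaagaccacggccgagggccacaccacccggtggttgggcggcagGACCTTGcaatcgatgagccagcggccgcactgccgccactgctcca
VAV2, upstream site: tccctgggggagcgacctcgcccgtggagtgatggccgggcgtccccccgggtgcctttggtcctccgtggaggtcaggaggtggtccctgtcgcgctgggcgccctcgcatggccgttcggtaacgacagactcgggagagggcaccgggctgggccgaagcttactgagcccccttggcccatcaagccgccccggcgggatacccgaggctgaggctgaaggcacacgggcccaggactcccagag
VAV2, BRD3 site: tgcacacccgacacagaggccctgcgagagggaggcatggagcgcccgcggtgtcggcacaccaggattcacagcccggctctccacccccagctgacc
VAV3, 3′ end site: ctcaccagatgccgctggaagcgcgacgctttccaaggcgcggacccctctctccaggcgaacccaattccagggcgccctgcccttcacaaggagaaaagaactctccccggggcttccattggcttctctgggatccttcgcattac
VAV3, intron 19 site: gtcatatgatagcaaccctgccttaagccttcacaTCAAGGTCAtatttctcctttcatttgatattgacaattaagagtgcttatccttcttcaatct
Of these, the first SARDH and the VAV3 intron 19 sequences hold the consensus. The VAV3 intron 19 sequence is AT-rich, with 36.4% GC and 0 CpG dinucleotides. The VAV2 exon 1, VAV2 upstream and VAV3 3′ end sequences hold 14, 22 and 10 CpG dinucleotides, with an observed over expected ratio of 0.772, 0.701 and 0.753, against 0.592 in the BRD3 sequence, 0.201 in the intron 2 sequence and 0.166 in each SARDH sequence.

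At VAV2 the number of peaks was highest in the overexpressed Millipore list. The basal Millipore list held 3 peaks (exact Poisson 95% interval 0.619 to 8.77), the overexpressed Millipore list 34 (23.5 to 47.5), the basal Perseus list 4 (1.09 to 10.2) and the overexpressed Perseus list 10 (4.8 to 18.4). The overexpressed Millipore interval did not overlap that of any other list, whereas the overexpressed Perseus interval overlapped that of the basal Perseus list. Of these peaks 0, 22, 3 and 3 lay inside the VAV2 body. All 3 basal Millipore peaks lay downstream of the gene, inside SARDH, which encodes a mitochondrial sarcosine dehydrogenase.

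**Figure D1:**
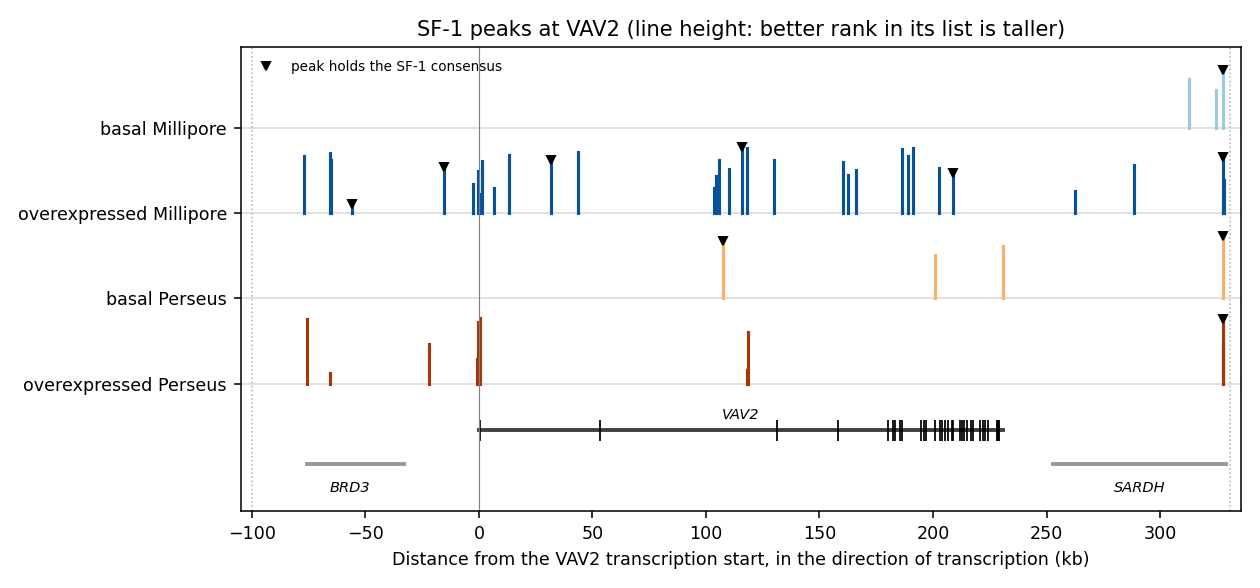
Each vertical line is an SF-1 peak within 100 kb of VAV2, placed by its distance (kb) from the VAV2 transcription start in the direction of transcription, with 1 row for each list. A taller line is a better rank within its list, a black triangle marks a peak with the SF-1 consensus, black ticks are VAV2 exons and dotted lines the ends of the region. The overexpressed Millipore row holds 34 peaks, 22 of them in the gene, against 3 and 0 in the basal Millipore row.

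The change with dosage was set beside that of the whole lists, because the overexpressed Millipore list is itself longer. With the Millipore antibody the number of peaks at VAV2 rose from 3 to 34, a ratio of 11.3 (exact 95% interval 3.56 to 57.7), against 2.71 (2.62 to 2.81) for the whole list and 3.24 (2.86 to 3.68) for chromosome 9 without the VAV2 region. The interval at VAV2 thus lay above that of the whole list, and its lower end lay within that of chromosome 9. The 2 Mb on the 2 sides of the VAV2 region rose as well, from 11 and 10 peaks to 60 and 66. This was a rise from 0.525 to 3.15 peaks per 100 kb. Whether VAV2 rose more than these flanks was not tested, so a rise particular to VAV2 is not shown. When the overexpressed list was kept to its 4393 best-ranked peaks, the length of the basal list, 20 peaks remained at VAV2. With the Perseus antibody the number went from 4 to 10, a ratio of 2.5 (0.721 to 10.9) whose interval includes the ratio of the whole list, 1.13 (1.09 to 1.16). A change with dosage at VAV2 beyond that of the whole list was therefore not detectable with the Perseus antibody at these counts.

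Per 100 kb, VAV2 held 0.697, 7.89 (5.47 to 11), 0.929 and 2.32 (1.11 to 4.27) peaks in the basal Millipore, overexpressed Millipore, basal Perseus and overexpressed Perseus lists. These densities were 4.53, 18.9, 4.01 and 8.91 times those of the whole genome. The surroundings were also dense: the 2 Mb on each side of the VAV2 region held 0.525, 3.15, 0.9 and 1.17 peaks per 100 kb, and chromosome 9 as a whole 0.274, 0.908, 0.521 and 0.597. In the overexpressed Millipore list the interval at VAV2 lay above the density of its flanks. In the basal Millipore and basal Perseus lists the flanking density lay inside the VAV2 interval, and in the overexpressed Perseus list it lay just inside its lower end. Median GC content of the VAV peaks was 61.8%, 60.8%, 53.5% and 62.5% in the 4 lists, against 45.6%, 55.6%, 51% and 54.8% for all peaks. The part of chromosome 9 and of GC content in the number of peaks at VAV2 was not tested.

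**Figure D2:**
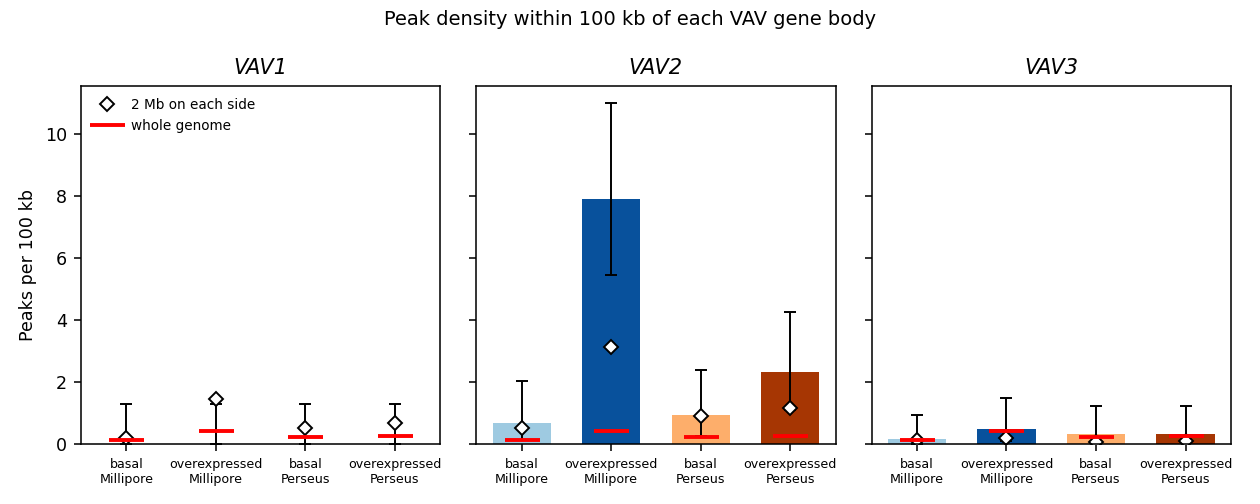
Bars give SF-1 peaks per 100 kb of body and 100 kb flanks for each VAV gene and list, with exact Poisson 95% intervals. Diamonds give the density of the 2 Mb on each side and red dashes that of the whole genome. VAV2 in the overexpressed Millipore list, at 7.89, stands above both, and VAV1 has no bar because it held 0 peaks.

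Among all 20163 protein-coding genes, VAV2 held the most peaks in the overexpressed Millipore list, both within 100 kb (34) and inside the body (22). Within 100 kb the lead was narrow, as ENSG00000235007 and PTPA, also on chromosome 9, held 30 each, inside the VAV2 interval of 23.5 to 47.5. The next counts inside a body were 17, in GSE1, MAD1L1 and ENSG00000286192. No interval was computed for counts inside a body, and whether this lead exceeds counting error was not tested. VAV2 stayed in first place when the list was reduced to its better-ranked 50% (18 peaks, against 10 in MAD1L1), when it was kept to the length of the shortest list (14, against 8 in TNS3) and when peaks within 500 bp were merged (20, against 15 in GSE1). It was also first by density among the 3666 genes of at least 100 kb, with 9.54 peaks per 100 kb of body, ahead of ENSG00000235007 with 8.25 and RASA3 with 7.95. By density within 100 kb, which favours short genes beside a cluster of peaks, 59 genes were as high or higher, VAV2 included, or 0.293%. This place held for the overexpressed Millipore list only among the 4 lists. As many peaks or more within 100 kb were found at 736 genes (3.65%) in the basal Millipore list, VAV2 included. In the basal Perseus list this held for 1604 genes (7.96%) and in the overexpressed Perseus list for 127 genes (0.63%), again with VAV2.

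**Figure D3:**
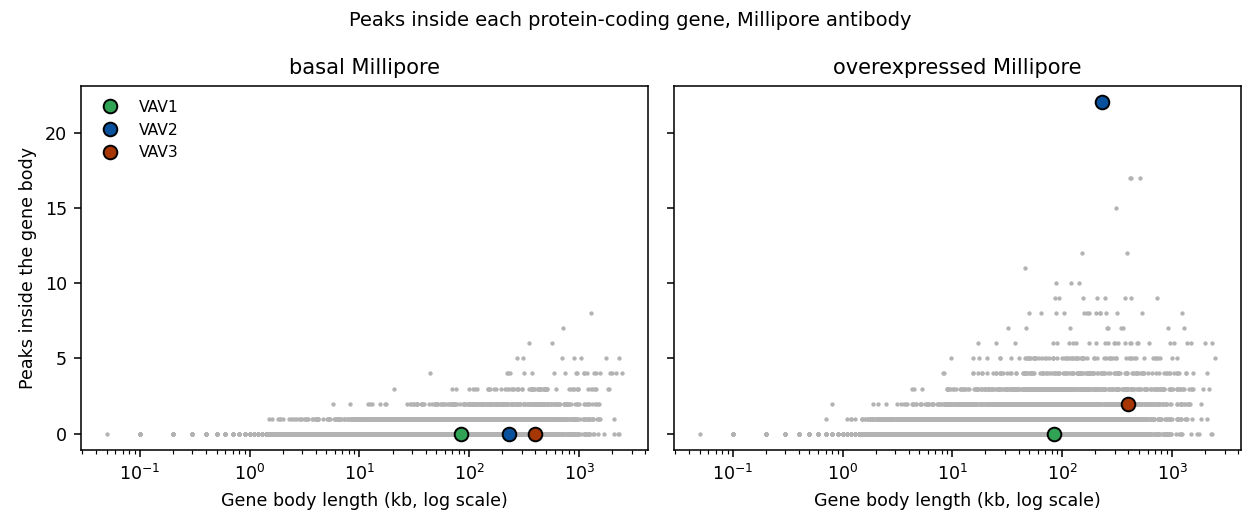
Each grey point is a protein-coding gene, placed by the length of its body (kb, log scale) and by the number of SF-1 peaks inside it, in the basal (left) and overexpressed (right) Millipore lists. VAV2, at 0 on the left and 22 on the right, is the highest point of the right panel, while VAV1 stays at 0 and VAV3 goes from 0 to 2.

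Within VAV2 the overexpressed Millipore peaks were mostly intronic, with 21 in introns and 1 in the first exon. Intron 2 (77.7 kb) held 8, intron 1 (52.9 kb) 5 and intron 4 (22.1 kb) 3. The remaining intronic peaks lay in introns 8, 9, 13 and 18, with 2 in intron 9 and 1 in each of the others. For 16 of the 34 peaks the nearest start of a protein-coding gene was that of VAV2. They ranked from 102 to 11772, and 15 lay in the best-ranked 25% and 25 in the better-ranked 50% of the list.

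The best-ranked overexpressed Millipore peak at VAV2 had rank 102 of 11910. It lay in intron 2 at chr9:136741451-136742449, measured 999 bp, held the consensus and overlapped no peak of another list. Rank 135 fell in intron 9 (chr9:136666251-136666799), and rank 204 in intron 2 (chr9:136739201-136740149). This last peak, 949 bp wide, covered a pair of Perseus peaks of the overexpressed list, at ranks 1895 and 6574 of 7453. The strip of intron 2 between 103651 and 118426 bp from the VAV2 start thus held peaks of 3 lists, as the basal Perseus list had its best-ranked VAV2 peak inside the gene there, at chr9:136750251-136750599 (107301 bp from the start, rank 986 of 6616, with the consensus). That basal peak overlapped no peak of another list.

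At the VAV2 promoter both antibodies gave peaks at overexpressed dosage, with ranks far apart. The first-exon site, 401 bp inside the gene in the overexpressed Millipore list, had rank 79 of 7453 with the Perseus antibody, the best of any VAV2 peak in that list, and rank 9334 of 11910 with the Millipore antibody. The Millipore peak lies wholly in coding sequence, while the wider Perseus peak also reaches untranslated sequence and intron 1. The core CAAGGTC appears once in each. The upstream site, 524 bp before the start in the Perseus list, had rank 647 there and rank 4877 in the Millipore list. A further Perseus peak lay 1049 bp upstream (rank 5287) and a further Millipore peak 2749 bp upstream (rank 7452). Neither basal list held a peak near the start. The closest basal Perseus peak was the one in intron 2, 107301 bp into the gene, and the closest basal Millipore peak lay 312726 bp away, inside SARDH (chr9:136544901-136545099, rank 1282 of 4393).

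The site in all 4 lists lay 97241 bp beyond the VAV2 3′ end in the basal lists, inside SARDH and close to the edge of the region examined. Its ranks were 588 of 4393, 2082 of 11910, 384 of 6616 and 285 of 7453, and in both basal lists it was the best-ranked peak assigned to VAV2. The nearest start of a protein-coding gene was that of DBH, which encodes dopamine beta-hydroxylase, 28290 bp away. The second SARDH site (chr9:136530051-136530199 in the Perseus list) was in both overexpressed lists, at ranks 11772 of 11910 and 3661 of 7453. On the other side, the site in BRD3, a gene for a bromodomain protein, was in both overexpressed lists at ranks 2537 and 7024 (chr9:136922651-136923199 in the Millipore list). The second-best Perseus peak assigned to VAV2 at overexpressed dosage (rank 162) lay 82 bp from the BRD3 start. Distance alone does not tell which of these genes such a peak belongs to.

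Joining overlapping peaks gave 42 sites at VAV2. Of these 36 were in 1 list, 5 in 2 lists and 1 in all 4. All 5 sites shared by 2 lists were in the overexpressed Millipore and overexpressed Perseus lists. In total 28 sites were found in the overexpressed Millipore list alone, 36 in overexpressed lists only and 5 in basal lists only. Over the whole lists, 4.53 to 26.2% of overexpressed peaks overlapped a peak of a given basal list. In the other direction 10.2 to 29.5% of basal peaks overlapped one of a given overexpressed list. The overexpressed lists are also longer, so 36 against 5 is by itself no result about dosage. With Millipore, 2 of 3 basal and 28 of 34 overexpressed VAV2 peaks were in 1 list only, against 79.1% and 83.4% of all peaks. With Perseus, 3 of 4 basal and 3 of 10 overexpressed VAV2 peaks were, against 62.3% and 62.1%. The 5 basal sites were SARDH sites of ranks 1282 and 2048 in the Millipore list, and in the Perseus list the intron 2 site, a peak in exon 13 (chr9:136656901-136657049, coding, rank 2519) and a peak at the 3′ end of the last exon (chr9:136627001-136627199, rank 1568). The site just outside the region was nearest in the overexpressed Millipore list, 106 kb from the gene (rank 6690), against 97.6 kb for the farthest peak inside (rank 6650).

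VAV3 held 1 (interval 0.0253 to 5.57), 3 (0.619 to 8.77), 2 (0.242 to 7.22) and 2 (0.242 to 7.22) peaks in the basal Millipore, overexpressed Millipore, basal Perseus and overexpressed Perseus lists. This was 0.168, 0.505, 0.337 and 0.337 per 100 kb, or 1.1, 1.21, 1.45 and 1.29 times the genome density, which lay inside the interval at VAV3 in every list. The ratio of overexpressed to basal peaks was 3 (0.241 to 157) with the Millipore and 1 (0.0725 to 13.8) with the Perseus antibody, intervals too wide to show a change with dosage. The surroundings were sparse, with 0.075 to 0.2 peaks per 100 kb in the 2 Mb on each side. The next peak beyond the region was 728 kb away in the basal Perseus list and farther in the others.

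**Figure D4:**
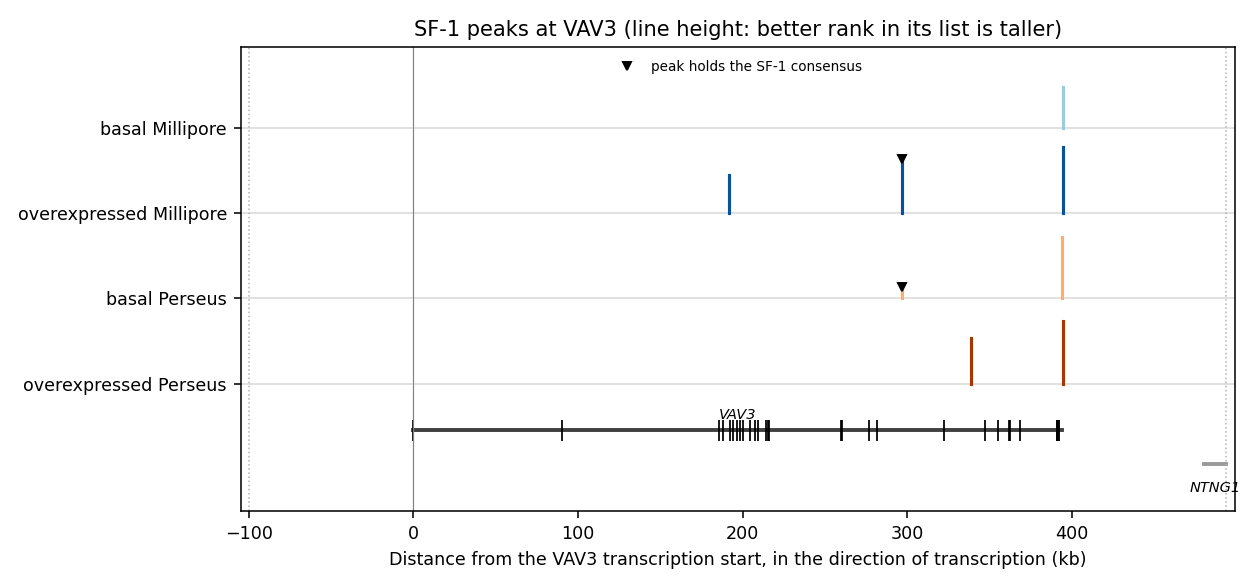
SF-1 peaks within 100 kb of VAV3, drawn as for VAV2: distance (kb) from the VAV3 transcription start, 1 row for each list, taller lines for better ranks and triangles for the consensus. All 4 rows share the site about 394577 bp from the start, just past the end of the gene, and no peak lies near the start.

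The site just past the VAV3 3′ end was the clearest one at this gene. It was found in all 4 lists, with its centre 558, 533, 383 and 558 bp beyond the annotated end, and was the best-ranked VAV3 peak in each. Its ranks were 1858 of 4393, 50 of 11910, 598 of 6616 and 447 of 7453, or 42.3%, 0.42%, 9.04% and 6% of the lists. Its rank of 50 was the best of all 59 VAV peaks, also as a percent of the list. The site held no consensus, also with 1 mismatch in the stretch printed above, and no core. Its GC content was 61.1% in that stretch, against 38.7% for the VAV3 region.

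The VAV3 intron 19 site (chr1:108210501-108210849 in the overexpressed Millipore list) had rank 2319 there and rank 6048 of 6616 in the basal Perseus list, near its end. It carried TCAAGGTCA. The other peaks were in single lists, in intron 4 in the overexpressed Millipore list (chr1:108316201-108316349, rank 5578) and in intron 20 in the overexpressed Perseus list (chr1:108168851-108168949, rank 2594). No list held a peak near the VAV3 start, the nearest being the intron 4 peak at 191527 bp. VAV3 had 4 sites in all, of which 2 were in 1 list, 1 in 2 lists and 1 in all 4.

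VAV1 held 0 peaks in every list, which allows up to 3.69 peaks by the exact Poisson interval, or 1.3 per 100 kb. This limit lies above the genome density of every list (0.154, 0.417, 0.231 and 0.261), so a density below that of the genome was not shown. The nearest peaks lay upstream, 274 kb from the gene in the basal Millipore list (rank 469, in TUBB4A), 115 kb in the overexpressed Millipore list (rank 11902 of 11910) and 256 kb in both Perseus lists (ranks 1847 and 4259). The 2 Mb on each side of the VAV1 region held 0.2, 1.47, 0.525 and 0.7 peaks per 100 kb. In the overexpressed Millipore list this density of the flanks lay above the limit for VAV1.

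Having a peak within 100 kb is common, and was read against all genes. It held for 2 of the 3 VAV genes in every list, against 36.5%, 67.9%, 52.6% and 56.7% of protein-coding genes in the basal Millipore, overexpressed Millipore, basal Perseus and overexpressed Perseus lists. A peak inside the body was found for 0, 2, 2 and 2 of the VAV genes, against 9.41%, 23.8%, 15.6% and 17.9% of genes. With 3 genes, of which VAV2 and VAV3 are long, these shares say little. It is the number of peaks at VAV2, rather than their presence, that was the highest of all genes in the overexpressed Millipore list. Within 100 kb other chromosome 9 genes came near it, with 30 peaks at ENSG00000235007 and PTPA against 34.

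Sharing between lists was counted for the VAV peaks beside all peaks, with an overlap of at least 1 bp. Of 12 VAV peaks in the overexpressed Perseus list, 8 overlapped an overexpressed Millipore peak, or 66.7% (Wilson 95% interval 39.1 to 86.2%), against 18.5% (17.6 to 19.4%) of the whole list. Those at ranks 1895 and 6574 overlapped the same Millipore peak. The overlaps are thus not all independent, which the interval does not allow for. Where Millipore peaks are dense, more such overlaps are found, and this was not separated from the sharing itself. Seen from the other list, 7 of 37 overexpressed Millipore VAV peaks were shared, or 18.9% (9.48 to 34.2%), against 11.5% (10.9 to 12.1%). Between dosages, 2 of 4 basal Millipore VAV peaks overlapped an overexpressed Millipore peak and 2 of 6 basal Perseus VAV peaks an overexpressed Perseus peak, against 12.4% and 29.5% of the whole lists. The pairs behind both counts were the same sites, the one in SARDH and the one past the VAV3 end. In the whole lists 1.38 to 3.78% of peaks were found in all 4.

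**Figure D5:**
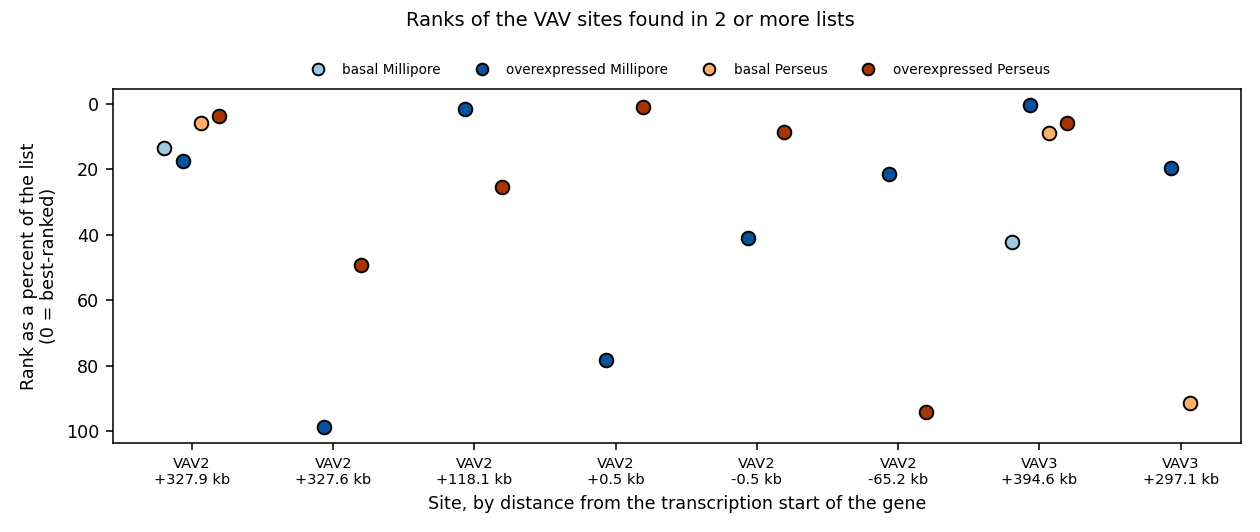
Ranks of the 8 VAV sites found in 2 or more lists, as a percent of the list (0 is the best-ranked, at the top), by distance (kb) from the start of their gene. The SARDH and VAV3 end sites, in all 4 lists, stay within the better 50% in each, while the sites shared by 2 lists are placed differently in them, as for the VAV2 exon 1 site at ranks 79 and 9334.

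The SF-1 consensus was looked for in the VAV peaks on both strands. It was present in 1 of 4, 7 of 37, 3 of 6 and 1 of 12 VAV peaks of the basal Millipore, overexpressed Millipore, basal Perseus and overexpressed Perseus lists. In all peaks of these lists the share was 16%, 10.9%, 21.6% and 17.2%, and in windows of the same width 5 kb away it was 1.22%, 1.69%, 1.38% and 1.3%. The share for the overexpressed Millipore VAV peaks, 18.9% (9.48 to 34.2%), had an interval that included the share of the list and lay above that of the windows. This reading depended on the form of the sequence. The 7-base core was present in 13 of 37 of these peaks, or 35.1% (21.8 to 51.2%), against 10.2% of the list, and the consensus with 1 mismatch in 23 of 37, or 62.2% (46.1 to 75.9%), against 42.2%. The VAV2 peaks of this list had a median width of 249 bp, against 149 bp for the list, and the part of width in these shares was not tested. In 59 VAV peaks the sequence recognised by the repressor NRSF/REST, with up to 4 mismatches, was found 0 times, against 0.408 to 1.27% of all peaks. At that frequency its absence from so few peaks is not informative. The matches fell in 7 of 42 VAV2 sites and 1 of 4 VAV3 sites, and are shown with 10 bases on either side, read so that the consensus runs 5′ to 3′. In order, these stretches start at chr9:136529768, chr9:136648764, chr9:136741576, chr9:136750457, chr9:136826035 (minus strand), chr9:136872866, chr9:136913735 and chr1:108210676, and the others are on the plus strand. They are printed to show which spellings occur. The overexpressed Millipore matches labelled intron 2, upstream and BRD3 lie in peaks of 1 list, the upstream one 15224 bp before the start. The shared intron 2, upstream and BRD3 sites held no consensus.
SARDH, all 4 lists: gcaattaaacCCAAGGTCAgggccacagg
VAV2 intron 18, overexpressed Millipore: tgcctctctgCCAAGGTCAaggcccttgt
VAV2 intron 2, overexpressed Millipore: agccagtcagCCAAGGCCAggagaacgtg
VAV2 intron 2, basal Perseus: ccccacaagtTCAAGGTCGgtgtactcag
VAV2 intron 1, overexpressed Millipore: ctgggcttctCCAAGGCCGgctcgagcac
VAV2 upstream, overexpressed Millipore: tgcaagcgtcCCAAGGCCAagacagccag
BRD3, overexpressed Millipore: tgtcactggcCCAAGGTCAcacagctggc
VAV3 intron 19, 2 lists: agccttcacaTCAAGGTCAtatttctcct
The SARDH, VAV2 intron 18 and BRD3 matches share the spelling CCAAGGTCA, the overexpressed Millipore match in intron 2 and the upstream match share CCAAGGCCA, and VAV3 intron 19 alone has TCAAGGTCA. At VAV2 the consensus was present in 1 of 6 shared sites and in 6 sites of 1 list. A match describes the sequence under the peak and does not show that SF-1 bound there.

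The genes around VAV in its pathway were examined from a list of 60, set up by role. At least 1 peak within 100 kb was found for 28, 48, 37 and 44 of them in the basal Millipore, overexpressed Millipore, basal Perseus and overexpressed Perseus lists, or 46.7%, 80%, 61.7% and 73.3%. These shares are above the 36.5%, 67.9%, 52.6% and 56.7% of all genes, but the pathway genes are longer, with a median body of 89.8 kb against 27.2 kb. Their median number of peaks was 0, 2, 1 and 1, against 0, 1, 1 and 1. The highest count of a pathway gene in the overexpressed Millipore list was 13, at the RHOA exchange factor ARHGEF1, below the 34 of VAV2.

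The counts by role are to be read against the same shares of all genes. The median body was 158 kb for exchange factors, 89.8 kb for upstream genes, 109 kb for effectors and 38 kb for inhibitors. Across all genes it was 27.2 kb, and the part of length in the shares by role was not tested. By role, 10, 15, 9 and 13 of 18 other exchange factors had a peak in the 4 lists, or 55.6%, 83.3%, 50% and 72.2%. Among them TRIO, which acts on RAC1 and RHOA, and MCF2L had peaks inside the body in all 4 lists, as did PAK4 among the effectors. These were 5% of the 60 genes, against 2.29% of all genes. MCF2L held 2, 9, 4 and 3 peaks within 100 kb and TRIO 1, 3, 1 and 1. Of the 8 GTPases 3, 5, 4 and 5 had a peak, or 37.5%, 62.5%, 50% and 62.5%, near the shares of all genes. None had one inside its body, with a median body of 21.7 kb. RAC1 had 0, 0, 1 and 0 peaks and RHOA 0, 3, 5 and 2. Of the 16 upstream receptors, kinases and adaptors, 7, 15, 10 and 10 had a peak, or 43.8%, 93.8%, 62.5% and 62.5%. SRC, a kinase that can phosphorylate VAV proteins, had 0, 7, 2 and 2. Of 14 effectors 6, 10, 12 and 13 had a peak, or 42.9%, 71.4%, 85.7% and 92.9%. PAK4, a kinase below CDC42, had 2, 3, 1 and 4. Of 4 inhibitors 2, 3, 2 and 3 had a peak, or 50%, 75%, 50% and 75%. ARHGEF6, NET1, RHOG and CBLB were, like VAV1 and 15.7% of all genes, without a peak within 100 kb in all 4 lists.

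Genes whose 4 counts within 100 kb were nearest to those of each VAV gene were named by Euclidean distance, leaving out genes within 1 Mb. For VAV2 these were ENSG00000235007 (3, 30, 10 and 12 peaks, distance 7.48), PTPA (5, 30, 10 and 15, distance 9) and IER5L (3, 26, 9 and 11, distance 9.49), all on chromosome 9. For VAV3 38 genes had the same 4 counts, and HUNK, EFR3B and USP7 were nearest in the tie by the rule. For VAV1 3154 genes had 0 in all lists, and ABCC8, BRCA2 and CSTF3 were nearest in length.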

How the data were processed

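Peak lists of 4 ChIP-seq groups were used. Per the methods, the authors mapped reads to hg19 with ELAND and called peaks from triplicate samples against input with SeqPeak of CisGenome. The labels list CASAVA 1.6. The score that the authors deposited is 1000 for every peak and carries no measurement, so positions and ranks were used. Starts fall on a grid of 50 bp. Input reads were not used here.

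Positions (1-based) were compared with the GRCh37 sequence and the GENCODE version 44 annotation mapped to it. Distances to a start refer to the outermost start of the gene, and introns to its canonical transcript. Peaks were assigned by their centre. Counts carry exact Poisson intervals, ratios exact binomial intervals and shares Wilson intervals, all at 95%. No test was run, since each group is 1 list. Counting, overlap and sequence searches were tested on simulated data. Intervals were computed with scipy 1.17.1 and tables with pandas 2.3.3 under Python 3.11.15, and sequence was read with pysam 0.24.0.

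Peaks given singly were those of sites in 2 or more lists, the best-ranked peak of each list at each gene and the one nearest to its start. Single other peaks were named after their values were seen. Pathway genes named were those with a peak inside the body in all lists or none in any, and ARHGEF1, RAC1, RHOA and SRC were added after their values were seen. The members and lists were chosen with earlier results of these data known. Alternatives covered the distance, the rank limit, the list length, merging, overlap, and the form of the consensus.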

Additional observations from a re-analysis of the deposited data

How the results depend on the processing

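The counts at the VAV genes depended on the distance allowed and on list length. Counting only peaks inside the bodies left 0, 24 and 4 peaks of the 3 genes together in the basal Millipore, overexpressed Millipore and overexpressed Perseus lists, in place of 4, 37 and 12. Within 10 kb, 1 basal Millipore and 7 overexpressed Perseus peaks remained. With lists of equal length (4393 peaks) the overexpressed Millipore count was 22. Sites shared between lists fell from 8 to 4 in the better-ranked 50%, while both sites in all 4 lists remained. VAV peaks with the consensus went from 12 to 35 with 1 mismatch and to 20 for the 7-base core, while the share over all peaks was 34.6 to 46.8% with 1 mismatch and 10.2 to 18.1% for the core, against 10.9 to 21.6%.

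For all genes, the percent with a peak in the basal Millipore, overexpressed Millipore, basal Perseus and overexpressed Perseus lists was 9.41, 23.8, 15.6 and 17.9 inside the body, 30.7, 61.5, 47.2 and 51.2 within 100 kb of the start, and 21.5, 48.6, 35.2 and 38.6 in the better-ranked 50%. Pathway genes with a peak inside the body were 11, 23, 17 and 19, and 16 in the better-ranked 50% of the basal Millipore list. Each change follows from fewer or looser peaks counted. VAV2 stayed first by peaks inside the body in the overexpressed Millipore list under 4 alternatives, which were chosen after seeing the data.

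No paired analysis was possible because each group is 1 list and no result comes from a test. Leaving out a replicate was not possible for the same reason. Depth is unknown, so a longer list can hold more and weaker peaks.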

Other observations

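TNS3, which encodes tensin 3, a focal adhesion protein, was placed among the first 10 genes by peaks inside the body in each of the 4 lists. It held 5, 15, 6 and 6 peaks in the basal Millipore, overexpressed Millipore, basal Perseus and overexpressed Perseus lists. Ties were ordered by gene name, and in the basal Millipore list TNS3 took place 10 in a tie at 5 peaks. ULK4 held 7, 5, 7 and 5. KMT2C, a histone methyltransferase gene, held 0, 0, 10 and 6, the most of the basal Perseus list. The exchange factor gene ARHGEF3, which was not in the pathway list, held 6, 3, 2 and 5 over a body of 352 kb. These genes were named after their values were seen.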
